A study of Rattus norvegicus with 98 samples.

Results

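H3K27ac peak lists from the nucleus accumbens shell, labelled NaCshell, were compared between fluoxetine-treated (FT) and control (Sham) rats. The members were chosen by their titles: 4 of the 94 peak lists of the series, 2 FT and 2 Sham, numbered replicate 1 and 2 in each treatment. All animals were male Long-Evans rats, labelled 2 months old. FT rats took fluoxetine in their drinking water at 18 mg per kg body weight per day for 6 weeks, and Sham rats took water without the drug. Each list came from frozen micropunches pooled over several animals, so a replicate was a pool and no value belonged to 1 animal. The same antibody lot was used throughout the study. A punch holds neurons and glia together, so that more acetylation per cell and more cells of 1 type cannot be told apart in any result below.

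The accumbens shell is the outer division of the ventral striatum. Most of its neurons are inhibitory medium spiny projection neurons, which receive dopamine from the ventral tegmental area (VTA), serotonin from the raphe and glutamate from the prefrontal cortex, hippocampus and amygdala, and the region is known for its role in reward and aversion. Fluoxetine blocks the serotonin transporter. H3K27ac, acetylation of lysine 27 on histone H3, marks active promoters and enhancers, so a peak list is a map of the regulatory elements in use in the punched tissue. No annotation of the genome build of these lists (Rn5) was at hand, so that loci are given by Rn5 position and without gene names.

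One list stood apart in length. FT replicate 2 held 49521 peaks covering 82.0 Mb. Sham replicate 1 held 29100 peaks (41.5 Mb), Sham replicate 2 held 27694 (37.6 Mb) and FT replicate 1 held 24429 (34.3 Mb). The longest and the shortest list were therefore both FT, and list length did not separate the treatments. The lists carry no read counts, so the depth behind each is unknown. To keep list length from deciding what was called, each list was ranked by maxScore, the detection score of the peak caller, and cut to the 24429 peaks of the shortest list. Lists of 10000 and of 5000 peaks, and lists cut to the same covered length (34.3 Mb), were compared beside it.

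The genome was divided into 1 kb windows, and a window counted as occupied where peaks covered at least 50% of it. A window separated the treatments when it was occupied in both lists of 1 treatment and in neither of the other. The 4 lists can be paired in 3 ways, and only 1 of them is FT against Sham. The split by replicate number, and the crossed split (Sham replicate 1 with FT replicate 2 against the other two), were counted in the same way to show how many windows separate any pairing. With 3 splits the smallest two-sided p is 0.333, and no p is given for these counts.

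On lists of 24429 peaks, 3995 windows were FT-higher (occupied in both FT lists alone) and 1587 were Sham-higher. Together these were 5582 of the 65321 windows occupied in any of the 4 lists, or 8.55%. FT-higher windows made up 6.12% and Sham-higher windows 2.43% of them. Of the Sham-higher windows, 79.8% were occupied in the full list of FT replicate 2, before the cut. The replicate split separated 2549 windows and the crossed split 3692, so that the treatment split held more windows than either. The crossed split was uneven: 3308 of its windows were occupied in Sham replicate 1 and FT replicate 2, the pair with the most windows, and 384 in the opposite pair. This order rested on both Sham lists. The log2 ratio of the treatment count to the average of both other counts was 0.84 with all 4 lists, -0.30 without Sham replicate 2 and -0.03 without Sham replicate 1, while leaving out FT replicate 2 gave 0.49 and leaving out FT replicate 1 gave 0.95.

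The contrast between treatments was clearer among the strongest peaks, where many windows separated by rank and not by presence. On 5000 peaks, 64.1% of FT-higher windows were occupied in both full Sham lists. Of the Sham-higher windows, 80.3% were occupied in both full FT lists. On 10000 peaks these shares were 41.4% and 60.8%. On lists of 10000 peaks the treatment split held 3776 windows (12.3%; FT-higher 7.86%, Sham-higher 4.47%) against 916 and 1289 in the other splits. On lists of 5000 peaks it held 2547 windows, 1596 FT-higher and 951 Sham-higher, which was 15.1% of the 16861 occupied windows (9.47% and 5.64%). The replicate split then held 455 and the crossed split 570, and the log2 ratio lay between 0.68 and 1.16 when any 1 list was left out. At equal covered length the counts were 5242, 2063 and 2564, and the treatment split held 9.32% of occupied windows (FT-higher 4.22%, Sham-higher 5.1%). On the lists as deposited the order changed: 5270 windows separated the treatments (5.82%; FT-higher 5.27%, Sham-higher 0.55%) and 6536 fell in the crossed split, 6389 of them in Sham replicate 1 and FT replicate 2.

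**Figure D1:**
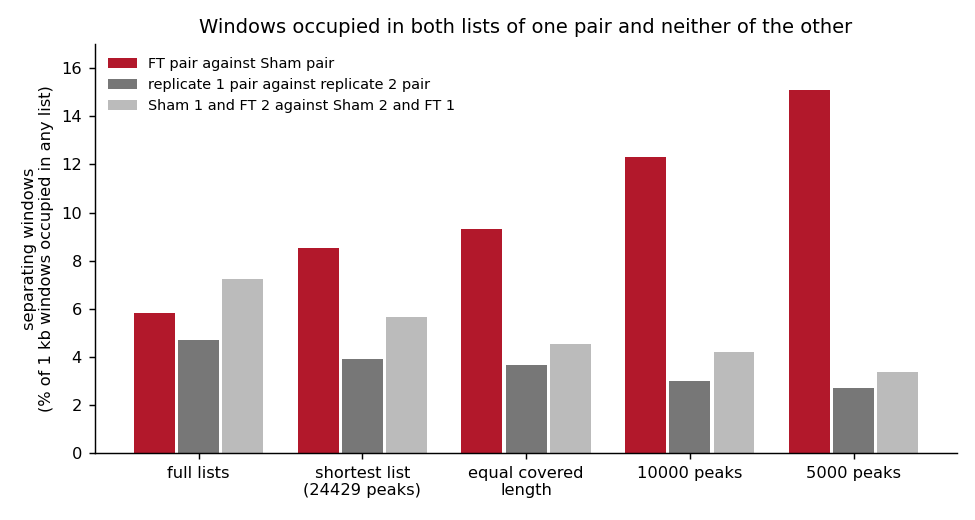
Windows of 1 kb occupied in both lists of one pair and in neither of the other, as a percent of all windows occupied in any NaCshell list (vertical axis), for 5 ways of cutting the lists (horizontal axis) and the 3 possible pairings (bars). The FT against Sham bar grew from 5.82% on full lists to 15.1% on 5000 peaks, while both other bars shrank.

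The direction depended on how lists were made equal. At 24429 peaks 71.6% of separating windows were FT-higher, at 5000 peaks 62.7%, and at equal covered length 45.3%. FT replicate 2 has wider peaks and so covers more windows with the same number of peaks. No direction of an excess is therefore given without its setting.

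Whole lists were also compared by similarity. On 5000 peaks the Jaccard index, the share of windows in either list that both hold, was 0.646 for the Sham pair and 0.630 for the FT pair. The 4 FT with Sham pairs lay between 0.503 and 0.531, so that the groups of pairs did not overlap. On 24429 peaks the Sham pair had 0.590 and the FT pair 0.526, while FT with Sham pairs lay between 0.493 and 0.549, and the ranges overlapped. Among all 94 lists, cut to 5000 peaks, each NaCshell list was closest to its own same-treatment partner. When all 94 were cut to 19378 peaks, the length of the shortest list in the series, Sham replicate 1 lay closest to replicate 2 of Sham basolateral amygdala (BLA, 0.623) and FT replicate 2 closest to FT NaCcore replicate 1 (0.652). Sham replicate 2 and FT replicate 1 stayed closest to their NaCshell partners (0.615 and 0.566).

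Nearly every separating window was in use elsewhere in the brain. Of the 5582 windows, 5561 (99.6%) were occupied in at least 1 of the 90 lists from the other 24 regions. This was true of 97.8% of all windows occupied in any NaCshell list, so that activity elsewhere was not a mark of the separating windows. Of the FT-higher windows 19 and of the Sham-higher windows 2 had no such list. Occupancy in NaCcore, the inner division of the accumbens, was found for 93.5% of FT-higher and 94.6% of Sham-higher windows.

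The number of regions that shared a window differed by direction. FT-higher windows were occupied in a median of 12 other regions (quartiles 7 and 22), and 21.3% of them in 23 or 24 regions. Sham-higher windows were occupied in a median of 23 (quartiles 22 and 24), and 69.3% of them in 23 or 24 regions. With both sides pooled, the replicate split had a median of 23 and the crossed split of 24, close to the 24 of windows occupied in all 4 lists. By side, the replicate split had 22 (replicate 1) and 23 (replicate 2). The crossed split had 24 (Sham replicate 1 and FT replicate 2) and 17 (the opposite pair). At this list length Sham-higher windows thus had a median like those of the other splits taken whole. FT-higher windows were used in fewer regions than either side of those splits. On full lists this did not hold. Windows of replicate 1 only, and of Sham replicate 2 with FT replicate 1 only, both had a median of 9 there, against 12 for FT-higher windows. Their opposite sides had 22 and 23, so that other pairings also showed a gap between sides.

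FT-higher windows were more often shared within the forebrain alone. Of them 52.3% were occupied in at least 1 of 5 brainstem regions (labelled VTA, PAG, Raphe, LC and Snt), against 97.1% of Sham-higher windows. A further 47.2% were occupied in at least 1 of 12 telencephalic regions (cortex, accumbens core, septum, bed nucleus, amygdala and dentate gyrus) and in none of the brainstem regions. The same held for 2.71% of Sham-higher windows and 16.6% of all windows occupied in any NaCshell list. At equal covered length, where Sham-higher windows were more numerous, the shares were 44.1% and 1.61%, and the medians 14 and 24 regions. The FT-higher share was smaller among the strongest peaks, at 30.7% on 10000 and 19.7% on 5000 peaks, where the Sham-higher shares were 0.292% and 0.316%. Without Sham replicate 1 the shares were 34.6% and 11.6%, without Sham replicate 2 they were 41.3% and 8.06%, and without FT replicate 2 they were 43.2% and 2.19%. Without FT replicate 2, windows occupied in FT replicate 1 and in neither Sham list had a median of 9 regions, and those of the opposite kind 24. Without Sham replicate 1 the medians were closer, at 19 and 21. On 5000 peaks they were 23 and 24.

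**Figure D2:**
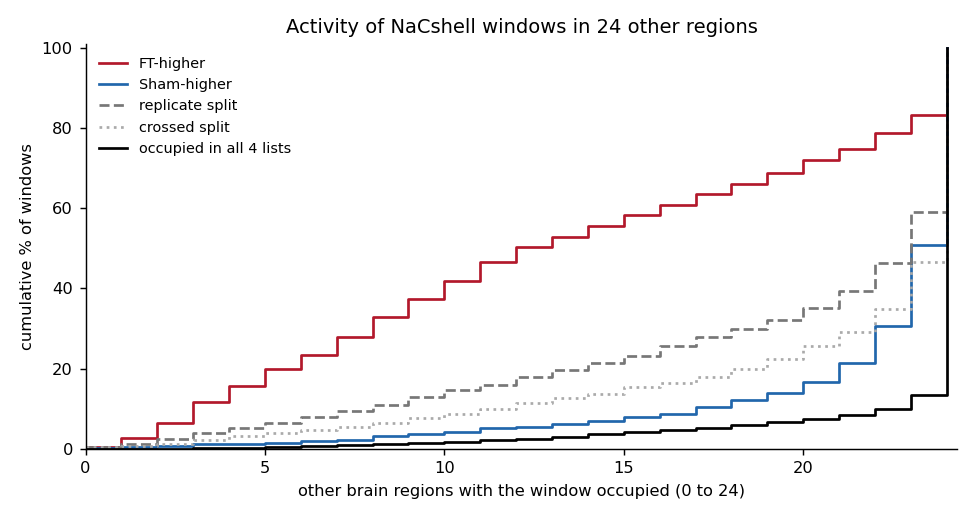
Cumulative percent of NaCshell windows (vertical axis) against the number of the 24 other regions in which the window was occupied in at least 1 list (horizontal axis), for lists of 24429 peaks. FT-higher windows accumulated early, with a median of 12 regions, while the other classes had medians of 23 or 24. The replicate and crossed splits are drawn with both sides pooled. Taken alone, windows of Sham replicate 2 and FT replicate 1 had a median of 17.

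A like pattern was present in other regions and was not tested as particular to NaCshell. In 16 of the 21 regions with 2 lists per treatment, windows higher in FT were shared by fewer regions than windows higher in Sham, and in 18 of 21 at equal covered length. On 5000 peaks this held in 8 of 21, with the opposite in 1 and equal medians in 12. NaCshell is itself 1 of the 21 regions and is counted among those with this order at each setting. Ordered by the log2 ratio given above, NaCshell was in place 15 of 21 on the shortest list and place 3 on 5000 peaks. The shortest list was that of each region, from 19378 peaks (infralimbic cortex, ILC) to 48578 (InsularCortex). Place 15 therefore compares regions at unlike list lengths. For comparison NaCcore had 7903 FT-higher and 585 Sham-higher windows on its shortest list, and 1066 and 272 on 5000 peaks.

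Windows that mark other regions were then counted in each NaCshell list. They were defined without the NaCshell lists, so that NaCcore markers can include windows that core and shell share. Their occupancy is therefore not a direct measure of the tissue in the punches. A marker window was occupied in every list of 1 other region and in at most 10% of the remaining lists outside NaCshell, all cut to 19378 peaks. Of the 735 NaCcore marker windows, Sham replicate 1 held 42.0%, Sham replicate 2 38.6%, FT replicate 1 77.6% and FT replicate 2 91.3%. Both FT lists lay above both Sham lists. The mean difference was 44.1 percentage points and was 37.2 points without FT replicate 2.

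The 2 amygdala regions, insular cortex and dentate gyrus showed the same order of FT above Sham. BLA marker windows (75) were occupied at 45.3% and 33.3% in the Sham lists and at 64.0% and 76.0% in the FT lists. For the central medial amygdala (CMA, 409 windows) the Sham lists held 6.85% and 3.42% and the FT lists 12.2% and 18.6%. For InsularCortex (1209 windows) the values were 3.31% and 2.65% against 8.02% and 12.8%. For dorDG (3391 windows) they were 1.59% and 1.39% against 4.10% and 6.84%. The order also held for venDG, PVN and PAG, with no list above 5.44%. In all, of 19 regions with at least 50 marker windows, both FT lists were above both Sham lists in 8 and below them in 1 (Snt), while the replicate split separated 4 and the crossed split 3.

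Markers of the septum and bed nucleus, which neighbour the accumbens, did not follow this order. LS marker windows (155), from the lateral septum, were occupied at 6.45% and 11.6% in Sham and at 8.39% and 7.10% in FT. BNST marker windows (221) stood at 6.79% and 10.4% in Sham and at 6.34% and 6.79% in FT. Those of LC, Raphe and Snt did not exceed 1.72% in any list. What part the makeup of the punches had in the FT-higher windows was not tested.

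**Figure D3:**
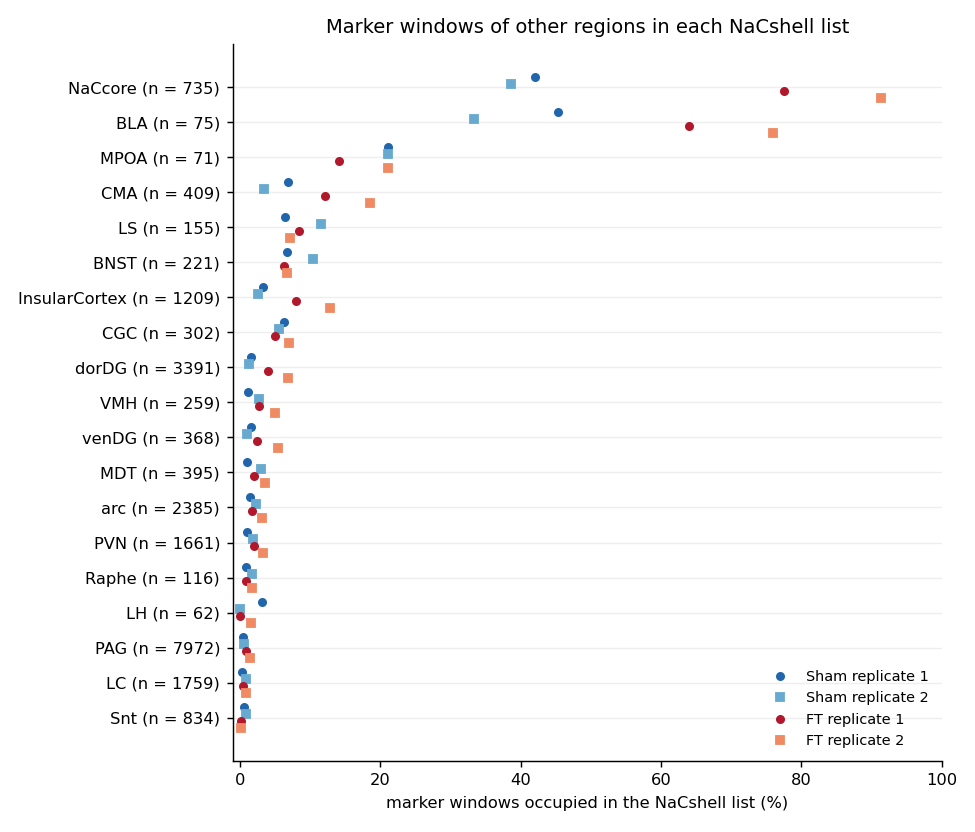
Percent of the marker windows of each other region (rows, with the number of windows) that were occupied in each of the 4 NaCshell lists (points; blue Sham, red and orange FT), lists cut to 19378 peaks. NaCcore marker windows were occupied at 38.6% to 42.0% in Sham and at 77.6% to 91.3% in FT, and most brainstem markers lay near 0.

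A minority of the windows that separated the treatments in NaCshell did so in any 1 other region, and there most often in the same direction. Other regions were separate libraries, but they were punched from brains of the same treatment groups, so that regions may share animals and are not independent. At equal covered length, 57.2% of FT-higher and 55.6% of Sham-higher NaCshell windows separated the treatments in at least 1 of 20 other regions. In single regions the share ran from 1.35% (Snt) to 13.6% (BLA) of FT-higher windows and from 0.837% (Snt) to 10.7% (MS) of Sham-higher windows. Here 323 windows that were FT-higher in NaCshell (13.6%) also separated the treatments in NaCcore, and 277 of these (85.8%) were FT-higher there. Of 293 Sham-higher windows (10.2%) that did so, 36 (12.3%) were FT-higher in NaCcore and 257 Sham-higher. Among all windows separating the treatments in NaCcore 61.5% were FT-higher, which lay between the 2 classes.

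The prelimbic cortex (PLC) and the dorsal dentate gyrus (dorDG) showed the same order. In PLC 97.8% of the FT-higher and 2.50% of the Sham-higher windows of NaCshell were FT-higher, against 68.4% of all its separating windows. In dorDG the values were 82.8% and 1.98%, against 53.3%. Over 20 regions, more than 50% of the jointly separating windows had the same direction in 19, with a median of 83.8%.

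The locus coeruleus (LC), the main noradrenergic nucleus, was the exception. Of 138 Sham-higher NaCshell windows (4.82%) that separated the treatments in LC, 125 (90.6%) were FT-higher there, and 17.7% of jointly separating windows had the same direction. InsularCortex showed little relation, with 51.4% in the same direction. Without FT replicate 2, 19 of 20 regions still had most windows in the same direction, but the median share was 66.8%, and in dorDG the FT-higher windows of NaCshell were FT-higher in 52.6%, against 53.3% of all dorDG windows. On 5000 peaks the majority had the same direction in 17 of 20 regions. Windows in 23 or 24 other regions and windows in fewer gave medians of 84.1% and 83.3%.

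**Figure D4:**
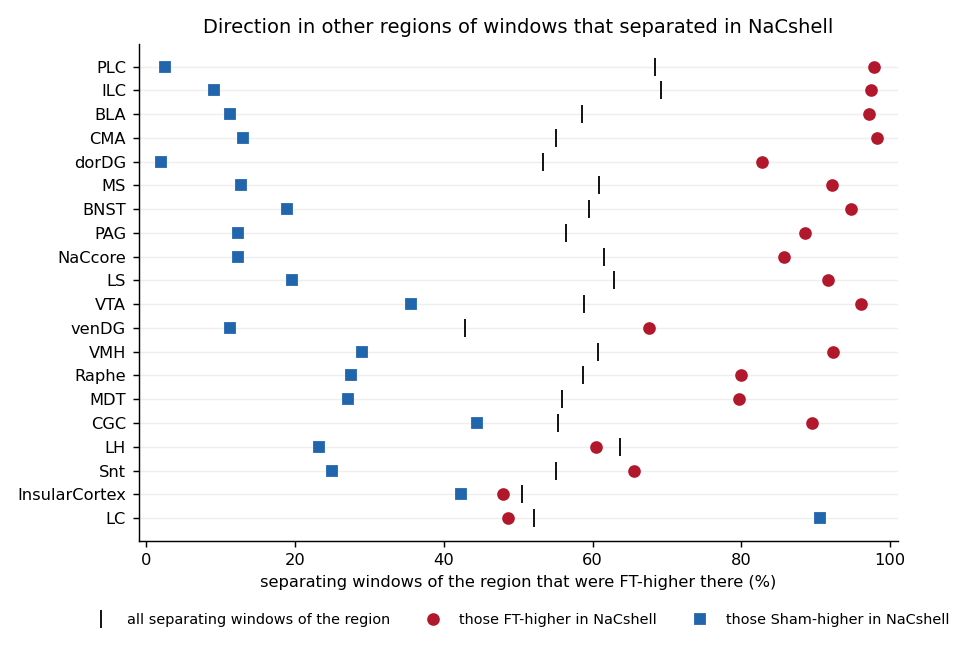
For each of 20 other regions (rows), the percent of windows separating the treatments there that were FT-higher there (horizontal axis), for all such windows (ticks), those FT-higher in NaCshell (circles) and those Sham-higher in NaCshell (squares), at equal covered length. In PLC the values were 68.4%, 97.8% and 2.50%, and in LC the square lay at 90.6%.

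Separating windows on the shortest-list setting were partly peaks called in 1 treatment alone and partly flanks. Of the FT-higher windows 37.2% lay in stretches with no peak in either full Sham list, and 35.4% lay in stretches that held a peak in all 4 lists. Of the Sham-higher windows 7.81% had no peak in either full FT list, and 79.8% were occupied in the full list of FT replicate 2. FT replicate 1 was not shortened by the cut, so these windows counted as Sham-higher only because FT replicate 2 was cut. On full lists 498 windows were Sham-higher. On 5000 peaks 99.5% of FT-higher and 99.6% of Sham-higher windows lay in stretches with peaks in all 4 full lists, so that at this length nearly all separating windows belonged to elements common to the 4 lists. Joining all peaks gave 56621 stretches, of which 16394 held a peak in all 4 lists, 2687 in both FT lists alone and 399 in both Sham lists alone, while 17119 were found in FT replicate 2 alone.

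Loci with the largest contrast were taken as windows occupied in both lists of 1 treatment among its best 10000 peaks and in neither full list of the other. There were 828 such windows in 807 loci for FT (2.7% of the 30637 windows occupied on 10000 peaks) and 54 in 53 loci for Sham (0.176%), and no locus was longer than 2 windows. A Sham locus had to be missing from FT replicate 2, whose full list covers 82.0 Mb, so that the 2 counts were not made under equal conditions. Occupancy of a locus in other lists is given for its most widely shared window. The first by rank of the FT loci, chr7:70540001-70542000 (Rn5), was a flank. It held a peak in all 4 lists at ranks 4155, 4001, 4465 and 4372 (Sham replicate 1 and 2, FT replicate 1 and 2), with widths of 2100, 2400, 3500 and 4600 bp. Both Sham peaks ranked above both FT peaks, and the FT peaks were wider.

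The second locus was a peak of FT lists alone. At chr7:31381001-31383000 neither Sham list held a peak, while FT replicate 1 had one of 2000 bp at rank 3880 and FT replicate 2 one of 2900 bp at rank 6454. Both Sham and both FT lists of NaCcore occupied this locus, and with these included 30 of the 45 Sham lists and 45 of the 45 FT lists from other regions did. The locus chr6:81507001-81509000 was likewise without a Sham peak and had FT peaks of 1900 and 2600 bp, and 11 Sham and 26 FT lists from other regions occupied it, the 4 of NaCcore included.

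Of the remaining FT loci, chr2:160838001-160840000 and chr18:69273001-69275000 had no Sham peak and were each active in at most 8 other regions, all of them forebrain and among them NaCcore. At chr3:12444001-12446000 and chr8:12744001-12746000 Sham replicate 1 alone held a Sham peak, at ranks 17146 and 10756. At chr11:72828001-72830000 Sham replicate 2 alone did, at rank 24608.

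Among Sham loci, chrX:154517001-154519000 was the longest. Sham replicate 1 and 2 each held a peak of 1600 bp, at ranks 5217 and 5876, and neither FT list held one. Both Sham lists and neither FT list of NaCcore occupied it, and outside the accumbens 6 Sham and 2 FT lists did. The other 7 Sham loci, each of 1 window, had a peak overlapping the window in all 4 lists. At chr3:35192001-35193000 the peak had ranks 563 and 1116 in Sham and 1724 and 2261 in FT, and its window was occupied in both Sham lists and in neither FT list of NaCcore. At chr7:53725001-53726000 the ranks were 118 and 112 in Sham and 226 and 264 in FT, and at chr5:129743001-129744000 they were 1175 and 1288 against 12031 and 4293. In all 3 both Sham peaks ranked above both FT peaks. The others were chr10:58068001-58069000, chr4:7292001-7293000, chr15:59001001-59002000 and chr13:58039001-58040000. At chr13 the ranks overlapped (2701 and 1505 in Sham, 1725 and 3402 in FT). Among lists of other regions, NaCcore included, FT outnumbered Sham at chr7 (39 against 33), chr5 (45 against 39) and chr10 (28 against 26). The same held at chr4 (39 against 36) and chr13 (33 against 30). Sham outnumbered FT at chr3 (32 against 19) and chr15 (22 against 18).

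At the 16394 common elements the lists could be compared by score. Each element took its highest Norm-tag-count, by its name a normalised tag score, in each list. The median score was 7 in FT replicate 2 and 4 in each other list. The elements were ranked within each list. In 9578 elements (58.4%) the FT and Sham ranks did not overlap, with FT above in 5232 (31.9%) and Sham above in 4346 (26.5%). The direction depended on the score and list length: Sham was above in more elements by maxScore (4764 against 4265) and by Norm-tag-count on 10000 peaks (1998 against 1533) and 5000 peaks (994 against 735). The replicate split gave 3002 (18.3%) and the crossed split 3812 (23.3%). The score takes only 16 to 33 different values per list, so that many elements share a tied rank. Blocks of tied elements fell at unlike percentiles in the 4 lists. Among elements active in 23 or 24 other regions, median percentiles were 40.7 and 48.0 in Sham and 58.0 and 49.8 in FT. An element tied at these values counts as FT above, so the FT excess gives no direction. For rank differences of 10 percentile points, Sham was higher in more elements (3330 against 3106). The treatment split then held 6436 elements, against 2370 by replicate number and 2502 crossed. Without ties an element falls into exactly 1 of the 3 splits.

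The shares were similar at every list length. On lists cut to 24429, 10000 and 5000 peaks the treatment split held 59.3%, 54.3% and 56.9% of the common elements. By maxScore, a finer score, it held 55.1% on full lists and 55.4% on 5000 peaks. Peak width ranks parted less, with 44.1% in the treatment split against 26.9% and 29.0%. Across elements, log2 Norm-tag-counts correlated at 0.894 between the Sham lists and 0.898 between the FT lists, and at 0.788 to 0.836 between FT and Sham. These are correlations over 16394 elements that share mappability and base composition, and carry no p.

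**Figure D5:**
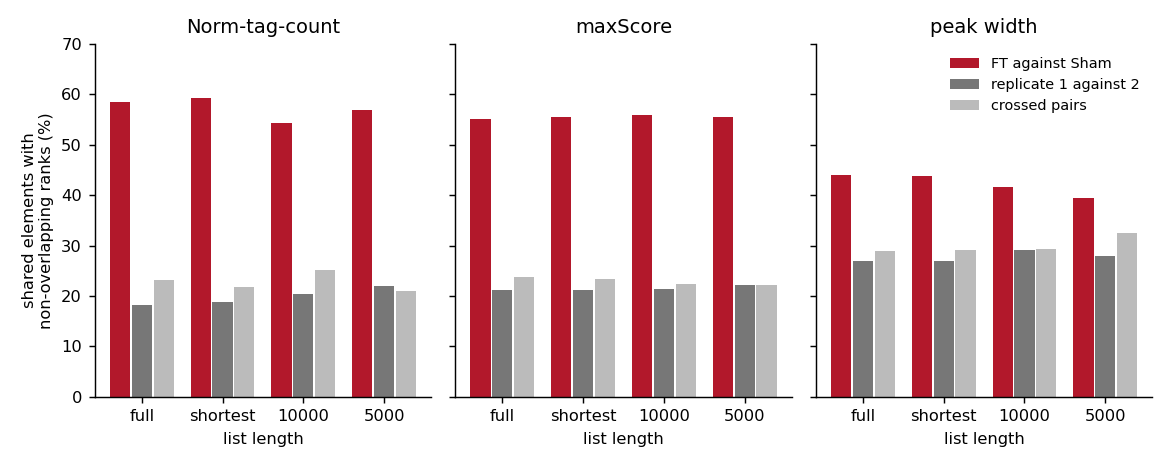
Percent of common elements whose within-list ranks did not overlap between the pairs of a split (vertical axis), by list length (horizontal axis) and score (panels). The FT against Sham bars lay between 54.3% and 59.3% for Norm-tag-count, and the other splits between 18.3% and 25.2%.

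Common elements active in fewer than 23 other regions more often ranked higher in FT here too. Among 418 common elements active in 7 to 12 other regions, the FT ranks lay above both Sham ranks in 337 (80.6%) and below in 7, and the median difference in percentile rank, FT minus Sham, was 15.3 points. Among the 14463 elements active in 23 or 24 regions, FT was above in 26.5% and Sham in 29.5%, with a median difference of -1.43 points. The replicate split had medians of 0.41 points in both groups of elements. The crossed split, Sham replicate 1 and FT replicate 2 minus the other two, had -1.52 points in the first and 0.03 in the second. With the finer maxScore the medians were 22.2 and -2.80 points. By Norm-tag-count, FT was above in 72.5% of elements in 0 to 6 regions, 76.3% in 13 to 18 and 65.45% in 19 to 22. Their median differences were 13.7, 16.0 and 13.7 points, so that the shift did not grow steadily as regions became fewer.

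The treatment count was 2.81 times the average of both other counts, by which NaCshell was in place 2 of 21 regions, after dorDG (3.15) and before LC (2.60). NaCcore had 1.30. This order used full lists, with 12982 (PLC) to 40631 (InsularCortex) common elements per region. No test of the difference between regions was made.

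Tests of single elements were fragile. Limma on quantile-normalised log2(Norm-tag-count + 1) called 999 of 16394 elements (6.09%) at an adjusted p below 0.05 (Benjamini-Hochberg), 418 FT-higher (2.55%) and 581 Sham-higher (3.54%). The direction of the calls turned with the setting: limma on normal scores of the ranks called 844 FT-higher and 367 Sham-higher, and on the shortest lists 146 and 3. With 1 list left out, the lone list is assumed to vary like the other treatment's pair. Such fits called 771 to 1546 elements, among them 263 FT-higher and 1283 Sham-higher without Sham replicate 2, and 986 and 341 without FT replicate 1. With the replicate number as a block, since Sham and FT of 1 number were processed in parallel, limma called 0, with 2540 elements below an unadjusted p of 0.05 and a lowest adjusted p of 0.194. The score takes only 16 to 33 different values per list, and 93.3% of the called elements had equal values in at least 1 same-treatment pair. Limma on maxScore called 754 elements (4.6%; FT-higher 3.49%, Sham-higher 1.11%) without the block and 0 with it, where 3771 had an unadjusted p below 0.05 and the lowest adjusted p was 0.0503. Adding 10 to the score, or dividing it by peak width, also left 0 calls by limma, with 2964 and 469 elements below an unadjusted p of 0.05.

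The FT-higher elements among the 999 were active in a median of 22 other regions (quartiles 15 and 24), and the Sham-higher in a median of 24 (97.4% of them in 23 or 24). All but 1 of the 999 were active in another region. The lowest p belonged to the element at chr17:76413202-76416501, active in 17 other regions. Its Norm-tag-count was 5 in both Sham lists, 8 in FT replicate 1 and 18 in FT replicate 2. On the normalised log2 scale FT exceeded Sham by 0.87 ± 0.02 (SE), with an adjusted p of 0.0323 by limma and 0.194 with the block. The normalised FT values were equal, so the SE holds no spread between the FT pools. By maxScore the values were 108 and 118 in Sham and 238 and 570 in FT, and the groups did not overlap on either score.

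Of the next FT elements, those at chr2:122043204-122044518 and chr2:122038904-122041203 lie about 2 kb apart. Their Norm-tag-counts were 8 and 7 in Sham and 9 and 21 in FT at the first, and 9 and 8 in Sham and 10 and 23 in FT at the second. By maxScore the first overlapped between treatments (146 and 131 against 142 and 348). The elements at chr6:120112665-120115164, chr10:35524212-35526811 and chr7:12892502-12895901 had FT minus Sham values of 0.55, 0.55 and 0.49.

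Among Sham-higher elements, those at chr1:125193510-125195835, chr2:254776604-254778618, chr2:270885702-270887803 and chr5:79823159-79825058 had identical scores. Norm-tag-count was 5 in both Sham lists, 3 in FT replicate 1 and 5 in FT replicate 2, a list whose scores ran higher throughout (median 7 against 4 in each of the others). In percentile rank these were 68.3 and 74.7 in Sham and at most 21.4 in FT, and the groups did not overlap. Their FT minus Sham value was -0.54 ± 0.02 (SE), again with equal normalised FT values, and by maxScore it lay between -1.32 and -0.91. The last 2, at chr3:66885974-66888838 and chr2:202707604-202709901, had -0.40 and -0.36, and at the second the maxScore difference was 0.10, in the other direction.

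Peak width did not differ between treatments beyond the spread of the lists. On 24429 peaks the median width was 1500 and 1400 bp in Sham and 1400 and 2100 bp in FT, a mean of 1450 ± 71 bp (SD, n = 2) against 1750 ± 495 bp. The log2 ratio was 0.27, with an exact permutation p of 1 (two-sided, smallest possible 0.333). It was -0.05 without FT replicate 2, so that 1 list set the difference. On 5000 peaks the medians were 2000 bp in both Sham lists and FT replicate 1, and 2300 bp in FT replicate 2.

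The separating windows were spread over all 21 chromosomes. FT-higher windows made up between 4.90% (chromosome 10) and 8.06% (chromosome 6) of occupied windows per chromosome, and Sham-higher windows between 1.92% (X) and 3.27% (chromosome 17).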

How the data were processed

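The authors aligned H3K27ac ChIP-seq reads to Rn5 (BWA per the submitters' processing notes) and called peaks in each library with DFilter. The deposited lists give a maxScore, a −log10 p-value, a Norm-tag-count score and an FDR percent (0 throughout) per peak, with widths in steps of 100 bp. Here peaks on chromosomes 1 to 20 and X were used. The members, lists and tests were chosen with earlier results of these data known. Windows, ranks and overlaps were computed in Python 3.11.15, and elements were tested with limma 3.58.1 in R 4.3.3, after a check on simulated data. Elements are joined peaks of the 4 full lists. Named loci are the first 8 per treatment by number of windows and then mean maxScore rank, and named elements are the 6 of lowest p per direction, in genome order where p tied. The study processed Sham and FT of 1 replicate number in parallel, which pairs the lists; the replicate 1 minus 2 deviations of Sham and FT correlated at -0.04 over 16394 elements. P-values are computed from the spread between pools. At 93.3% of the elements called by limma the values were equal in at least 1 same-treatment pair, because the score takes few values. Limma's p-values and SE at such elements do not measure the full spread between pools. The 4 input samples were not analysed here. In the Sham HB list, 0.14% of windows common to all NaCshell lists were occupied, so HB activity rests on its FT list. Gene markers of cell types were not used here for want of an Rn5 annotation.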

Additional observations from a re-analysis of the deposited data

How the results depend on the processing

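Depth is unknown, so no counting interval or floor could be given. The log2 ratio of treatment windows to the average of both other pairings (0.84) became -0.035 on full lists, -0.13 with peaks of −log10 p of at least 6 and -0.056 with 5 kb windows, and was 1.78 on 10000 and 2.31 on 5000 peaks. With the replicate number as a block (against the crossed split alone) it was 0.60, and 2.16 on 5000 peaks. Leaving out 1 list gave -0.30 to 0.95, and 0.04 to 0.61 at equal covered length. The FT-higher share of separating windows (71.6%) was 90.6% on full lists, 63.8% on 10000 and 62.7% on 5000 peaks, 45.3% at equal covered length, 64.6% by Norm-tag-count rank, 94.5% at −log10 p of at least 6, 55.1% by peak centres, 91.2% in 5 kb windows, 65.9% with any overlap, 88.9% with whole windows covered, and 50.7% to 88.4% without 1 list. Same-treatment minus FT with Sham Jaccard (0.04) was 0.086 on 10000 and 0.118 on 5000 peaks, and -0.014 to 0.075 without 1 list. The width ratio was -0.051 to 0.53 without 1 list.

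The 999 limma calls became 0 with a replicate block, 0 with 10 added, 0 per kb, 0 on maxScore with the block, 1904 on the 11298 elements left after dropping those of lowest score, 149 on shortest lists, 79 on 10000 peaks, 0 on 5000 peaks (793 with an unadjusted p below 0.05) and 771 to 1546 without 1 list, where the lone list is assumed to vary like the other pair. All 12 named elements lost their call with the block and with 10 added. The differences at chr5:79823159-79825058 per kb (0.098) and at chr2:202707604-202709901 by maxScore (0.099, with and without the block) changed sign. The rank ratio (2.81) by width was 1.58, 1.56, 1.42 and 1.30 on full, shortest, 10000 and 5000-peak lists.

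Windows active elsewhere (99.6%) came to 99.1% on full lists, 99.95% on 10000, 99.96% on 5000 peaks, 99.9% at equal covered length, 98.2% when 2 lists of 1 region were required, and 95.2% to 99.0% without 1 list. The median difference in regions, FT-higher minus Sham-higher (-11), was -7 on full lists, -4 on 10000 and -1 on 5000 peaks, and -15 to -2 without 1 list. FT-higher windows with no Sham peak (37.2%) were 53.7% on full lists, 1.16% on 10000, 0.0% on 5000 peaks and 17.2% at equal covered length. The NaCcore marker difference was 25.7 points on 5000 peaks. On 5000 peaks the order of FT above Sham also held for CMA, InsularCortex and dorDG markers. It did not hold for the 11 BLA markers (0.0% and 36.4% in Sham, 27.3% in each FT list). Equal covered length for activity and position, maxScore in limma, limma on 10000 and 5000 peaks, maxScore and width ranks, Jaccard without 1 list, positions by list length, the 5000-peak block and 5000-peak markers were chosen after seeing the data. The causes were not tested.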
